A study of Mus musculus with 2 samples.

Results

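A dense group of strong Ebf1 peaks on mouse chromosome 17, in the 1 Mb window from 84 to 85 Mb (mm9) that was put forward as holding Zfp36l2 and Thada, is described here. Members are the peaks whose centre lies in that window, and a peak is called strong where its deposited score is 55 or more. The window held 75 of the 34534 peaks of the list, and 18 of the 75 were strong, beside 10.2% of the whole list. The window was selected on the deposited score, for its many strong peaks, so its counts and scores are a description and carry no test.

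The peaks come from 1 chromatin immunoprecipitation and sequencing (ChIP-seq) library of mature 3T3-L1 adipocytes, fat cells obtained in culture from a line of mouse fibroblasts. Fixation with 1% formaldehyde took place at day 10 after differentiation was started with MDI, a hormonal mixture, and chromatin was precipitated with an antibody against Ebf1. The labels name no transgene, mutation or other treatment. A whole cell extract without antibody was the other library, and it had no values that could be analysed here. With 1 library there is no replicate error, and the read depth behind each peak is unknown. The list gives each peak 2 whole numbers of unstated meaning. The first is called the score and the other the second value.

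Ebf1 is a DNA-binding protein of the helix-loop-helix type, required for B cells and active in fat cell differentiation. Zfp36l2 encodes a zinc finger protein that binds AU-rich stretches of messenger RNAs and speeds their decay. Thada encodes a large protein that was first found through gene rearrangements in thyroid adenomas. A peak in a factor's ChIP-seq marks where its antibody enriched DNA, and by itself names no target gene.

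Where the peaks lie relative to these genes was not analysed here, because the only gene table used is one of GRCm38.p6, another build. That table was used for names and order alone. Among protein-coding genes it lists Zfp36l2 and Thada next to each other. Haao, an enzyme of tryptophan breakdown, precedes Zfp36l2, and before it stands Mta3, a subunit of a chromatin-remodelling complex. Plekhh2 and Dync2li1 follow Thada, and after them come Abcg5 and Abcg8, which together form a sterol transporter. Which of these genes lie inside the mm9 window was not checked, and the peaks are named by position below.

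The 18 strong peaks formed an island with no other strong peak close by. They spanned 878 kb, from 84057226 to 84934900, and all 75 peaks spanned 902 kb. The nearest strong peak to the left, at 82651626 to 82652200 with a score of 91, lay 1406 kb from the first of the 18, centre to centre. To the right the nearest, at 86385901 to 86386550 with a score of 71, lay 1452 kb from the last. Between these flanking peaks ran 3.73 Mb of chromosome 17 in which the 18 were the only strong peaks. The stretches left and right of the window held 15 and 6 peaks, with highest scores of 25 and 16.

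The step at the window's edges was visible in whole 1 Mb windows. The window from 83 to 84 Mb held 9 peaks and the one from 85 to 86 Mb held 6, none of them strong in either. Farther out, 80 to 81 Mb held 45 peaks with 6 strong, and 86 to 87 Mb held 38 with 6 strong. The other 91 windows of chromosome 17 with a peak had a median of 16 peaks and 1 strong peak, and at most 8 strong peaks. The 18 were 9.63% of the 187 strong peaks of chromosome 17.

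**Figure D1:**
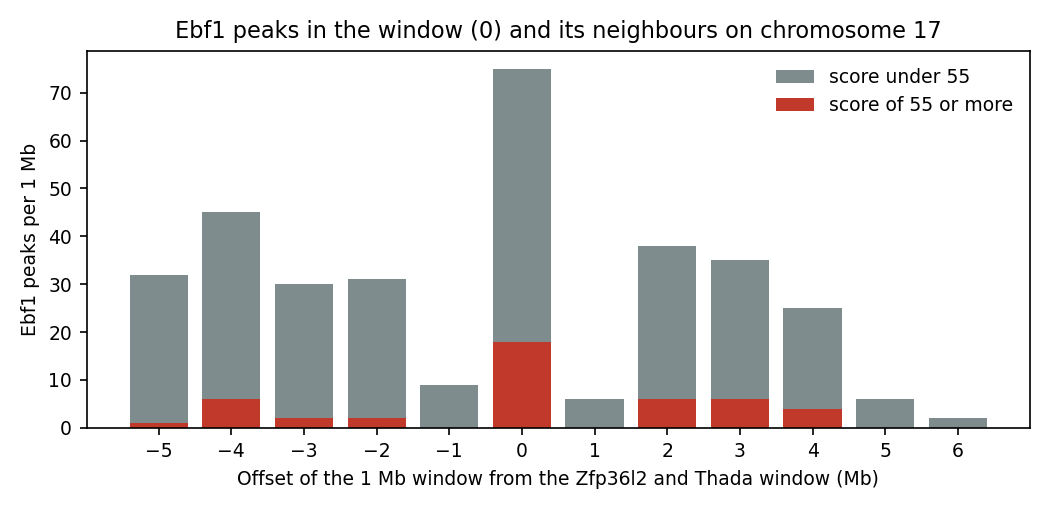
Bars give the number of Ebf1 peaks in each of 12 neighbouring 1 Mb windows of chromosome 17, with peaks of score 55 or more in red and weaker ones in grey, and offset 0 is the Zfp36l2 and Thada window. The windows just left and right hold 9 and 6 peaks and no strong one, against 75 and 18 at offset 0.

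Among the 2456 windows of 1 Mb with a peak on chromosomes 1 to 19 and X, this one held the most strong peaks. The next was at 136 to 137 Mb on chromosome 5 with 14, followed by 127 to 128 Mb on chromosome 8 and 52 to 53 Mb on chromosome 6 with 13 each. The median window held 1 strong peak, and 1167 windows held none. By the number of all peaks the window came 8th, since 7 windows held more. Strong peaks were 24% of its peaks, beside 10.2% of the whole list, a gap that follows from how the window was picked. In the other 7 windows with 11 or more strong peaks this share ran from 22.4% to 27.5%, except at 94 to 95 Mb on chromosome 6, where it was lower with 11 of 58 peaks. Of the 35 windows with 50 or more peaks, 2 had a higher share. By summed score the window came second with 2967, behind 177 to 178 Mb on chromosome 2 with 3025. That window reached its sum through 208 peaks, none of them strong, whereas strong peaks made up 71.8% of the sum in the chromosome 17 window. In the whole list strong peaks made up 41.3% of the summed score, and picking the window for its strong peaks raises its share. None of these differences between windows was tested.

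**Figure D2:**
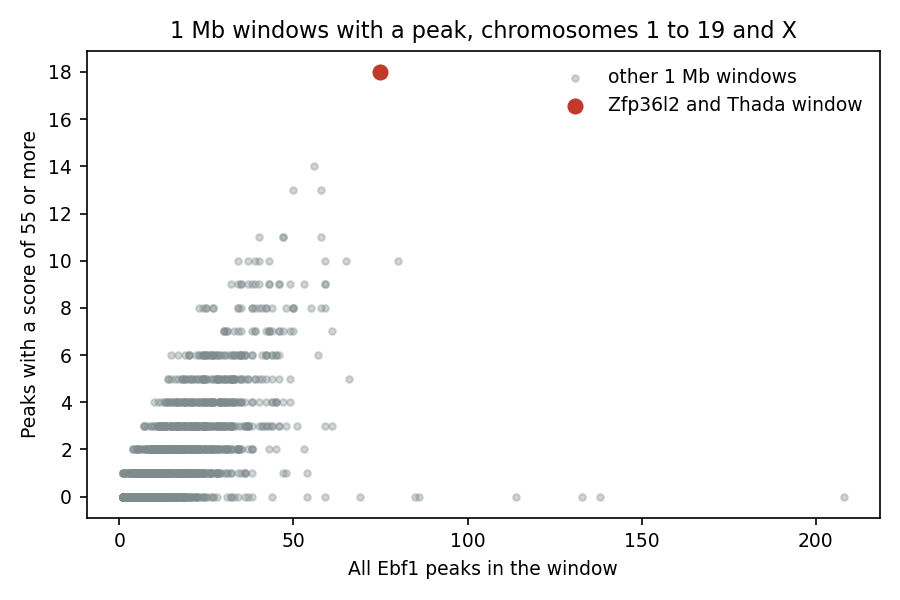
Each point is a 1 Mb window with a peak on chromosomes 1 to 19 and X, with all its Ebf1 peaks on the horizontal axis and its peaks of score 55 or more on the vertical axis. The Zfp36l2 and Thada window, in red at 75 and 18, is the highest point, and the 7 windows with more peaks hold at most 10 strong ones.

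Within the island, gaps between neighbouring strong centres ran from 2.40 to 155 kb. Whether this is uneven for 18 peaks was not tested. Gaps of more than 100 kb between neighbouring strong centres split the 18 into a left stretch of 11, a right group of 4 and 3 single peaks. The left stretch ran 301 kb, from 84211651 to 84512350, and held 32 peaks with 56.7% of the window's summed score. The right group ran 36.4 kb, from 84769051 to 84805425, and held 12 peaks with 22.0% of it. Strong peaks were 34.4% of the peaks in the left stretch and 33.3% in the right group, and both shares follow from ends set at strong peaks. The 3 single strong peaks stood before, between and after these.

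**Figure D3:**
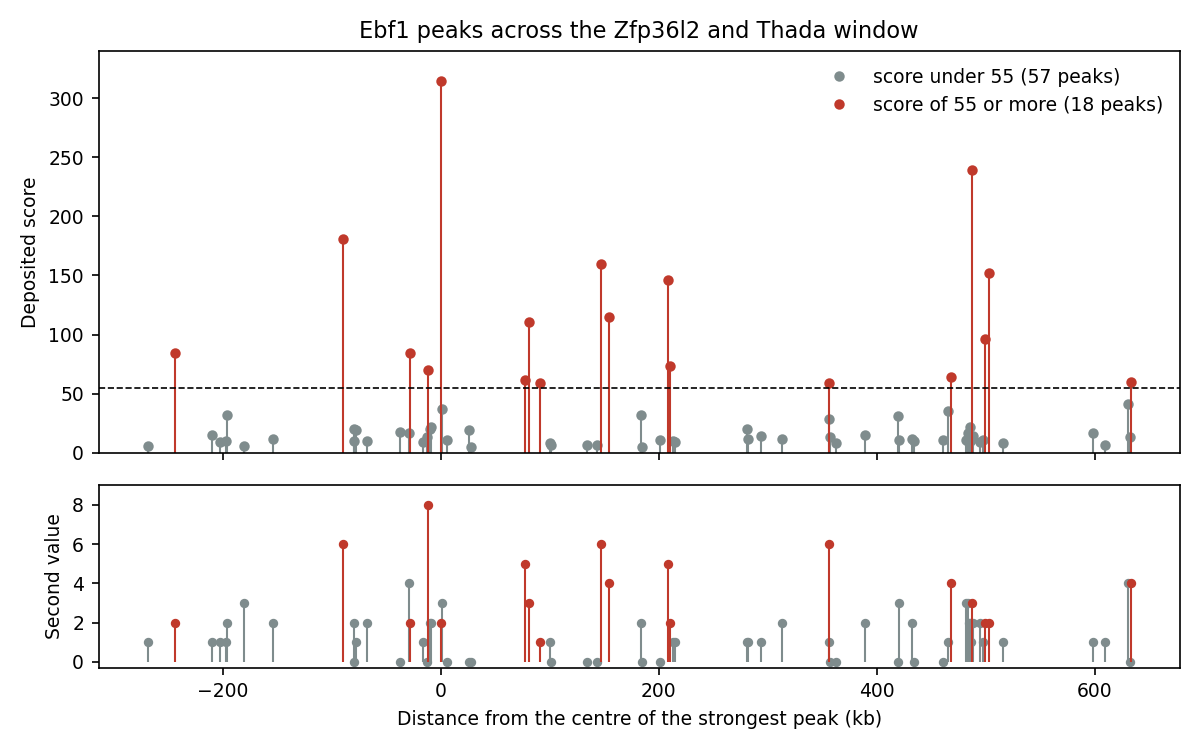
Each stem is an Ebf1 peak placed by its distance in kb from the centre of the strongest peak, with the deposited score above and the second value below, and red marks the 18 peaks of score 55 or more. A left stretch of 11 strong peaks and a right group of 4 stand apart from 3 single ones, and the highest stems are 314, 239 and 181.

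The first strong peak stood alone at the left end. It covered 84057226 to 84057800, scored 84 with a second value of 2, and had its nearest neighbour on the right 33.5 kb away. It was the only strong peak of the window outside any cluster, when peaks were joined into clusters at centre distances of up to 12500 bp. The next strong peak lay 155 kb to its right, and the 6 peaks between them had a median score of 11.

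The left stretch opened with a peak surpassed by only 2 others of the window. It covered 84211651 to 84212450, 800 bp wide, with a score of 181 and a second value of 6. It had 3 weaker peaks within 12500 bp to its right, with scores of 10, 20 and 19. The nearest strong peak was 61.1 kb away, so this was a strong site with weak company on 1 side.

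The strongest peak of the window lay near the right end of the largest cluster of the left stretch. It covered 84301201 to 84302000, scored 314 with a second value of 2, and ranked 16th in the whole list. Another strong peak, 84288851 to 84289775, stood 12.3 kb to its left and was wider at 925 bp, but scored only 70 with a second value of 8. That second value was the highest of the window. To the left of both, 84272876 to 84273475, scored 84 with a second value of 2. These 3 belonged to a cluster of 11 peaks over 43.2 kb with a summed score of 615, which ranked 15th of 6386 clusters of the whole list. The 8 others scored between 9 and 37, and the one at 84302526 to 84303050, 1.19 kb from the strongest centre, was the 37.

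Farther right came a tight set of 3 strong peaks. They covered 84378301 to 84378925 with a score of 62, 84382226 to 84383125 with 111, and 84392326 to 84392800 with 59, and their second values were 5, 3 and 1. The first 2 centres were 4.06 kb apart and the last followed at 9.89 kb, with no weaker peak between them. With weaker peaks of 8 and 7 at the right end, this cluster of 5 had a median score of 59. Such a make-up, with more strong than weaker members, was seen in 1 of the window's 15 clusters.

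Next lay 2 close couples of strong peaks. The first joined 84447826 to 84448775, 950 bp wide with a score of 160, to 84455401 to 84456225 with a score of 115, at 7.51 kb. Their second values were 6 and 4, and 2 weaker peaks of score 7 each stood to their left. The other couple joined 84509176 to 84510025, with a score of 146 and a second value of 5, to 84511651 to 84512350, with 73 and 2. At 2.40 kb these were the closest strong centres of the window, and 3 weaker peaks of 11, 10 and 9 flanked them. All 4 were at least 700 bp wide, and within each couple the left peak scored higher.

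Right of the second couple strong peaks stopped for 146 kb. The 7 peaks between had a median score of 12. A single strong peak, 84657726 to 84658300, followed with a score of 59 and a second value of 6. It sat between 2 weaker peaks, of 29 at 0.600 kb to the left and 13 at 0.450 kb to the right. Another 111 kb without a strong centre held 9 peaks with a median score of 12.

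The right group held 12 peaks over 36.4 kb and the left stretch 32 over 301 kb. This contrast depends on the split at gaps over 100 kb, which kept strong gaps of up to 77.0 kb inside the left stretch. The right group opened with 84769051 to 84769700, which scored 64 with a second value of 4. At 20.1 kb followed the window's second strongest peak, 84789151 to 84789900, with a score of 239 and a second value of 3, the 63rd rank of the whole list. It was closely flanked, with 8 weaker peaks within 12500 bp, the most of any strong peak here. Of these, 84789926 to 84790175 began just after its end, lay 0.525 kb from its centre and scored 14. Whether such adjoining calls, here and elsewhere in the window, are separate sites was not tested. Then came 84800976 to 84801550 with a score of 96 and 84804801 to 84805425 with 152, 3.85 kb apart and each with a second value of 2. The last 3 strong peaks of the group shared a cluster of 12 peaks over 33.5 kb, from 84783851 to 84817350. Its summed score was 598, the 21st of the whole list. The set thus differed from the tight set of 3 on the left: 9 of its 12 peaks were weak. It was much like the largest cluster of the left stretch, where 3 of 11 peaks over 43.2 kb were strong and the summed score was 615.

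Behind the right group lay the longest stretch of the window without any peak, from 84817350 to 84900126, with 83.0 kb between centres. The last strong peak, 84934426 to 84934900, closed the island with a score of 60 and a second value of 4. Its neighbour to the left at 0.438 kb scored 13, and the one beyond, 84931876 to 84932450, scored 41.

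Scores near the threshold showed a gap. The lowest strong scores were 59, 59 and 60, and the highest below the threshold were 41, 37 and 35. No peak of the window scored between 41 and 59, so a threshold anywhere in that gap gives the same 18 peaks. Of the 75 peaks, 8 scored 100 or more, beside 3.52% of the whole list. The median strong score was 90, with a range of 59 to 314, against a median of 83 for strong peaks of the whole list. The 3 highest peaks alone carried 24.7% of the window's summed score.

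Strong peaks were spread over most of the window, not gathered in 1 bin. Of 10 bins of 100 kb, 9 held at least 1 strong peak. The richest, 84300001 to 84400000, held 4 of the 18, or 22.2%. The bin with the most peaks, 84700001 to 84800000, held 16 peaks but only 2 strong ones. In the only bin without a strong peak, 84100001 to 84200000, 4 peaks reached at most 32. The left 500 kb held 10 strong peaks and the right 500 kb held 8.

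Joining peaks gave 15 clusters that held 69 of the 75 peaks. Of these clusters 5 held at least 2 strong peaks, 4 held 1 and 6 held none. In the whole list 5.81% of clusters held 2 or more strong peaks. Another strong peak lay within 12500 bp for 12 of the 18 strong peaks, beside 19.9% of the strong peaks of the whole list. A window with more strong peaks places them closer together, so nothing further is read from these shares. The gaps between the 18 centres ran from 2.40 to 155 kb with a median of 20.1 kb. The gaps between all 75 had a median of 5.47 kb.

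The 57 weaker peaks scored between 5 and 41 with a median of 12, against 11 for weaker peaks of the whole list. Of them 34, or 59.6%, lay within 12500 bp of a strong peak, beside 11.8% of the weaker peaks of the whole list, which is again set by the number of strong peaks here. Weaker peaks near a strong one had a median score of 11, and the 23 farther away had a median of 12. In the whole list these medians were 13 and 11, so the weaker peaks of the window did not have a higher median beside a strong one. Only 6 lay within 1 kb of a strong centre, and 21 within 5 kb. Of the 18 strong peaks 15 had at least 1 weaker peak within 12500 bp. The 3 without were the peak at the left end and the first 2 of the tight set.

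Width followed score in the window as in the list. The 18 strong peaks were 475 to 950 bp wide with a median of 675 bp, and the 57 weaker ones 200 to 575 bp with a median of 275 bp. Across the 75 peaks, which share 1 library, score and width had a Pearson's r of 0.816 and a Spearman's rho of 0.920, as a description. In the whole list rho was 0.925. Set beside peaks of equal width elsewhere on chromosomes 1 to 19 and X, 11 strong peaks scored above the median for their width and 7 below. Of the weaker peaks 28 scored above, 24 below and 5 at that median. Strong and weaker peaks were cut on the score itself, so these counts depend on the cut. The median elsewhere was 54 at 550 bp and 61 at 575 bp. A strong peak at 475 bp, where the median was 35, had to score above it, and a weaker peak at 575 bp had to score below.

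The strong peaks furthest above their width's median were not the widest. The peak with 314 scored higher than 98% of 100 peaks of its width, whose median was 117. The peak with 152 at the right end of the right group was only 625 bp wide and scored higher than 96.8% of its 380 peers. The peak with 239 did so for 95.9% of 147. At the narrow end, the strong peaks of 60 and 59, each 475 bp wide, scored above 95.6% and 94.8% of 1057 peaks, whose median was 35. The upper quartile at 475 bp was 43, below the threshold for strong peaks. Any strong peak of that width had to outscore most of its peers, so these high shares follow at least in part from the cut. At the other extreme, the peak of 70 at 925 bp scored higher than only 10% of 40 peers with a median of 157.

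**Figure D4:**
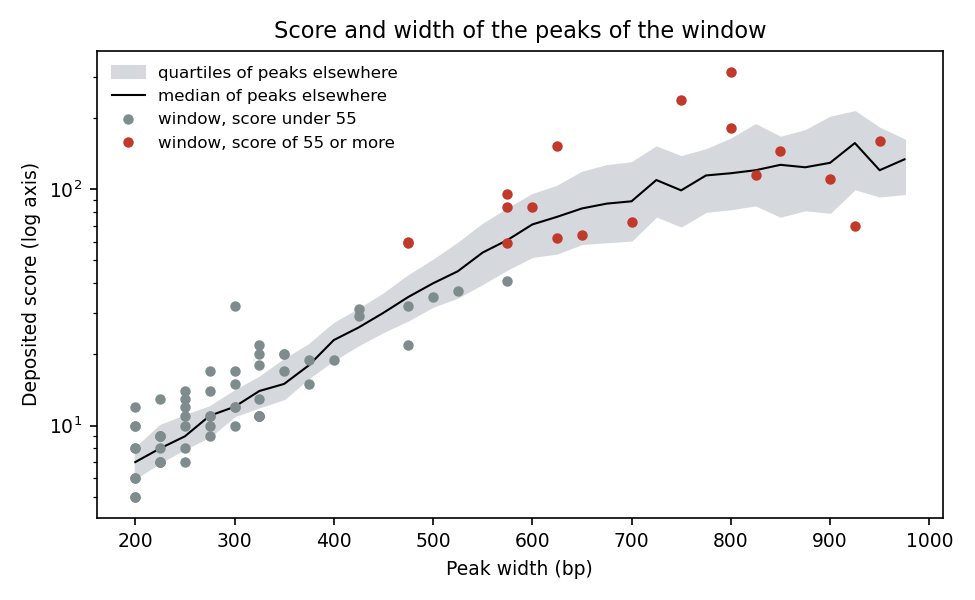
Points are the 75 peaks of the window by width in bp and deposited score on a log axis, red for a score of 55 or more, over the median and quartiles of peaks of equal width elsewhere on chromosomes 1 to 19 and X. Most points follow the median line, while the 314 at 800 bp lies far above it and the 70 at 925 bp far below.

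The second value was not used to choose the window. Its mean was 1.83 over the 75 peaks, beside 1.87 for peaks of equal width elsewhere, a ratio of 0.978. Strong peaks averaged 3.72 against 3.70 at equal width, and weaker peaks 1.23 against 1.29. The second values thus lay close to what the widths of the peaks give elsewhere. Among the strong peaks the second value ran from 1 to 8, with 8 peaks above and 10 below the mean for their width. A second value of 0 was given to none of the 18 strong peaks, beside 6.86% of strong peaks in the whole list. It was given to 17 of the weaker ones, or 29.8%, beside 32.4% of weaker peaks in the whole list.

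Most other crowded windows had a higher second value for their widths. Of the 35 windows with 50 or more peaks, the ratio ran from 0.904 to 2.70 with a median of 1.23, and the Zfp36l2 and Thada window was 34th from the top. The window below it, 46 to 47 Mb on the same chromosome, held 55 peaks with 8 strong. The window with 14 strong peaks on chromosome 5 had a ratio of 1.47, and that with 13 on chromosome 8 had 0.992. The weak-peak window at 177 to 178 Mb on chromosome 2 had 1.93. The difference between windows was not tested, since peaks of 1 library are not replicates.

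**Figure D5:**
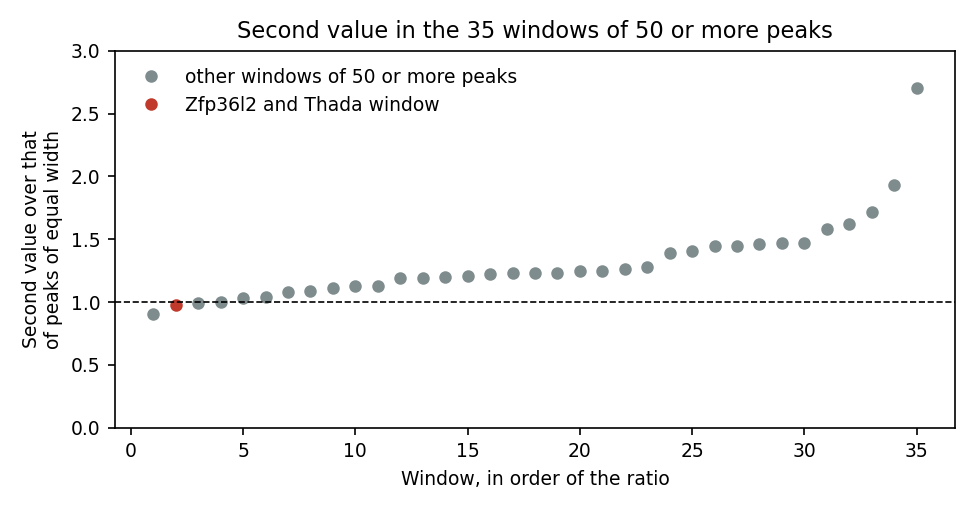
Each point is 1 of the 35 windows of 1 Mb with 50 or more peaks, in order of the ratio of its second values to those of peaks of equal width elsewhere, and the dashed line is a ratio of 1. The Zfp36l2 and Thada window, in red at 0.978, is next to the lowest, and the ratios reach 2.70.

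Score and second value went together over the window but not among its strong peaks. Spearman's rho between them was 0.595 over the 75 peaks and -0.02 over the 18 strong ones, which were cut on the score. Over the whole list it was 0.422, so the link is not particular to the window. The 5 strong peaks that scored above 90% of their width peers had second values of 2, 1, 3, 2 and 4. The means for their widths were 4.31, 2.13, 4.03, 2.95 and 2.13, so 4 of the 5 were below. The 925 bp peak with the low score of 70 had a second value of 8 where its width gives 5.75. These peaks were picked after their values were seen.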

How the data were processed

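Ebf1 ChIP-seq was done on mature 3T3-L1 adipocytes. Per the labels' protocols, ligation products of 275 to 700 bp were gel purified and given 18 PCR cycles. The submitters' processing notes name mm9 as build and list SAMtools. What aligner and peak caller were run, at what threshold and with what use of the whole cell extract, is not given in the sources used. Both value columns of the deposited list are unexplained whole-number scores, ranging from 3 to 597 and from 0 to 15, and were used only to describe and rank peaks within the list. A wider peak could score higher through the calling itself.

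Positions were kept as deposited, with width as end minus start plus 1. Neighbouring centres within 12500 bp were joined into clusters. Second values were set beside the mean of peaks of equal width outside the window on chromosomes 1 to 19 and X. These steps were checked on simulated data. Every strong peak of the window is described. The gene lists planned and the Ebf motif were not used, because no mm9 annotation or sequence was at hand, and no sequence is printed. The window and lists were chosen with earlier results of these data known. Alternatives were other score thresholds, window positions, joining distances and width matches, and clusters made from peaks of score 13 or more alone. Tables were made with pandas 2.3.3 and numpy 2.4.6 in Python 3.11.15, intervals with scipy 1.17.1, and figures with matplotlib 3.10.9.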

Additional observations from a re-analysis of the deposited data

How the results depend on the processing

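Alternatives gave 19 values, of which 16 were unmoved and 3 moved. None was reversed, but counts, shares and ranks have no direction that could reverse. Unmoved means within 1.5 times for counts, ranks and ratios, and within the exact Clopper-Pearson 95% interval for the share in the richest 100 kb. That interval, 6.41 to 47.6 around 22.2%, treats neighbouring peaks of 1 library as independent and ignores that the bin was picked as the richest. It is too wide to be a strict limit, so the alternatives, from 21.1% to 27.8%, could hardly leave it. Being called unmoved therefore says little about this share. The number of strong peaks, 18, was 8 at a score threshold of 100, by construction, and 10 and 8 with the window shifted by 0.5 Mb to the left and to the right, since each shift keeps 1 side of the island. It was 19 at a threshold of 40 and 13 at 70. The window held the most strong peaks at every threshold tried, tied with 1 other at 100, and with windows placed every 0.5 Mb. The number of clusters, 15, was 19 and 11 at joining distances of 5 and 25 kb. With only peaks of score 13 or more it was 10, at the edge of the 1.5 times limit and counted as unmoved. The second value ratio of 0.978 was 0.996 with widths within 50 bp and 0.931 against chromosome 17 alone, where 74 of the 75 peaks had a width match. No paired analysis was possible because only 1 library has values, and for the same reason none could be left out. Gene positions and the motif were planned and not run. Since depth is unknown, how many of the 57 weaker peaks are chance calls cannot be said.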
